A study of Mus musculus with 6 samples.

Results

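The genes described here are 38 listed members of the mouse Hox clusters, 10 of HoxA, 10 of HoxB, 9 of HoxC and 9 of HoxD, taken by symbol from a table of 56748 gene identifiers. They were read in ureters of NMRI wildtype embryos that were dissected at E12.5 and kept for 18 h on transwell membranes. The medium of the treated group held 15 mM LiCl, and the control group received water. LiCl is a salt that inhibits the kinase GSK3B and thereby activates canonical WNT signaling. The comparison asked which transcripts of the whole explant differ after this short activation. Each group had 3 samples, all of the same strain, genotype and stage, and bulk RNA-Seq was performed on poly-A-selected RNA. The sources used here do not say whether the 3 samples came from separate litters or how many ureters each held, so the p-values measure the spread between these samples only. An explant holds ureteric epithelium (UE) and ureteric mesenchyme (UM) together, and fewer cells of one type cannot be told apart from less RNA per cell.

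Hox genes encode homeodomain transcription factors that give cells positional identity along the body axes. They stand in 4 clusters, and genes that occupy the same place in different clusters form a paralog group. In each cluster, genes of low paralog number are switched on early and reach far anteriorly, whereas genes of high paralog number are switched on late and are restricted to posterior and distal tissues, such as the limb bud and the urogenital tract. In the developing kidney, the paralogs of group 11 act with EYA1 and PAX2 in the mesenchyme to induce *Gdnf*, the paralogs of group 13 pattern the distal urogenital tract and the genital tubercle, and *Hoxb7* is expressed in the nephric duct and the ureteric bud.

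Of the 38 genes, 35 had at least 10 counts in at least 3 of the 6 samples, and the same 35 passed edgeR's filter on low counts. The other 3 were near the limit of detection. *Hoxb1*, the paralog that specifies the identity of a hindbrain segment, was read 1, 5 and 4 times in the control samples and 0, 0 and 1 times after LiCl. *Hoxc12* had 0, 1 and 0 counts and then 0, 2 and 0, and *Hoxc13*, which acts in hair and nail formation, had 0, 1 and 0 counts and then 3, 1 and 0. No fold change is given for these genes.

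Transcript levels of different genes were compared per length, as FPKM. The Hox genes of the ureter were not expressed evenly. *Hoxa10*, an *Abd-B*-type gene of the posterior urogenital tract, had the highest control level in HoxA, with 39.0, 40.0 and 39.7 FPKM in the controls and 41.9, 36.3 and 39.9 FPKM after LiCl. *Hoxa13* followed with 26.5 ± 1.16 FPKM (SD, n = 3) in the controls and *Hoxa11* with 17.1 ± 1.68 FPKM. The low-numbered genes of this cluster were weak: *Hoxa2*, *Hoxa3*, *Hoxa4* and *Hoxa7* had control means between 1.45 and 3.17 FPKM, and *Hoxa5*, *Hoxa6* and *Hoxa9* between 9.66 and 12.8 FPKM.

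In HoxB, *Hoxb6* had the highest level, with 26.0, 26.6 and 25.9 FPKM in the controls and 26.2, 24.5 and 25.7 FPKM after LiCl. *Hoxb8*, *Hoxb9* and *Hoxb7* followed with control means of 21.5 ± 1.70, 19.0 ± 2.07 and 17.2 ± 1.39 FPKM (SD, n = 3), and the control ranges of *Hoxb9* and *Hoxb7* overlapped. HoxC was the weakest cluster. Its highest gene, *Hoxc10*, had 10, 10.3 and 12.6 FPKM in the controls and 9.48, 9.01 and 11.1 FPKM after LiCl, and the summed control level of its 9 genes was 31.1 ± 2.56 FPKM, against 127 ± 2.07 FPKM for HoxA, 107 ± 6.08 FPKM for HoxB and 150 ± 5.62 FPKM for HoxD.

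In HoxD, *Hoxd13* had the highest level, with 27.0, 30.2 and 29.1 FPKM in the controls and 30.7, 45.8 and 34.3 FPKM after LiCl, and *Hoxd9* was next with 26.8 ± 1.16 FPKM in the controls. The control ranges of *Hoxd13* and *Hoxd9* overlapped. All genes of HoxD were detected, from *Hoxd4* with a control mean of 7.45 FPKM upwards. *Hoxd3* and *Hoxd4* share 62.3% and 52.3% of their exon bases with each other or with a readthrough locus, *Gm28230*, on the same strand, in the GENCODE vM21 annotation of GRCm38. How the authors' counting split these reads is not given in the sources used here, so the levels of both genes are uncertain. The plot of FPKM by paralog group gives all members.

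**Figure D1:**
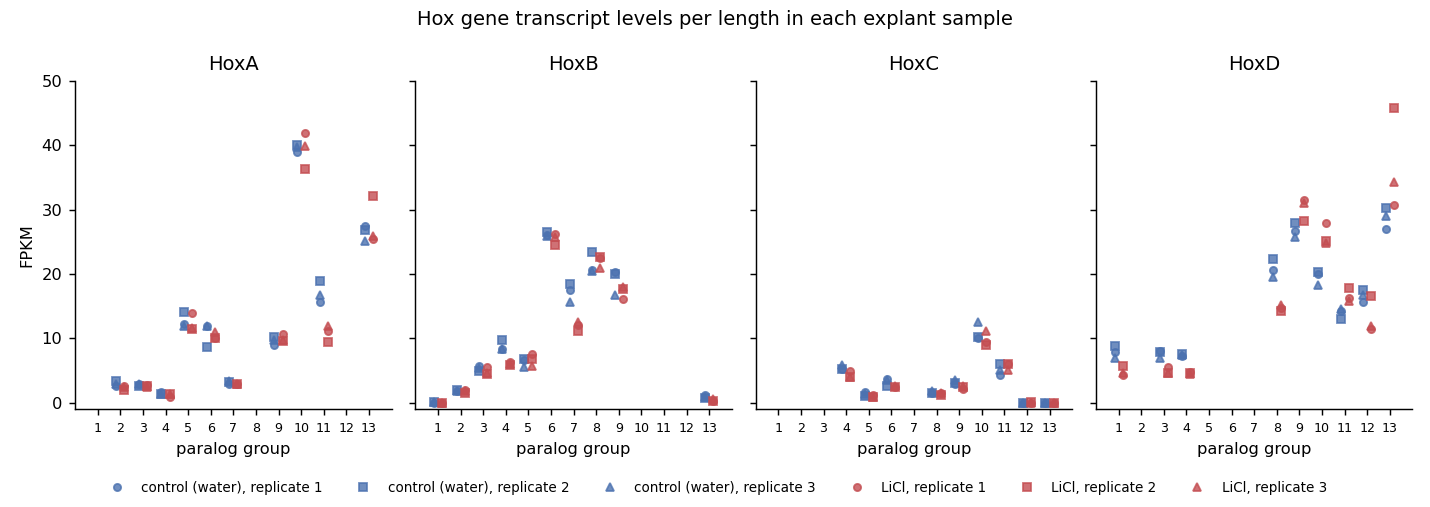
FPKM of each Hox gene in each sample, with paralog groups on the x axis and 1 panel per cluster. Blue symbols are the 3 controls, red symbols the 3 LiCl samples, and the symbol shape gives the replicate number. *Hoxa10* lies between 36.3 and 41.9 FPKM, no HoxC gene exceeds 12.6 FPKM, and the LiCl symbols of *Hoxd1*, *Hoxd3*, *Hoxd4* and *Hoxd8* lie below those of the controls.

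Library totals were 28473436 to 31266945 counts and overlapped between the groups. Markers of both tissues of the ureter were present in all samples, such as *Tbx18* of the UM with means of 368 and 246 CPM (counts scaled to a common library size with TMM factors) in controls and LiCl samples, and *Cdh1* of the UE with 289 and 145 CPM. Of the 14 UE markers listed, 11 were lower and 1 was higher after LiCl, and their summed level was 1180 to 1510 CPM in the controls and 875 to 920 CPM after LiCl. Of the 12 UM markers, 5 were lower and 0 were higher, with sums of 2330 to 2450 CPM and 2090 to 2170 CPM. Of 13 tested skeletal muscle markers, 7 were higher and 0 lower. The sum over all 18 listed muscle markers, tested or not, was 33.9 to 38.4 CPM in the controls. It was 71.2, 37.2 and 133 CPM in LiCl replicates 1 to 3, so replicates 1 and 3 stood apart. The counts of higher and lower genes were 3 and 4 of 11 nephron progenitor and stroma markers, 0 and 3 of 11 neural markers, 0 and 1 of 8 endothelial markers, 1 and 4 of 8 macrophage markers, 2 and 2 of 8 cartilage and limb markers, and 1 and 1 of 5 gonad and mesonephric duct markers. At the threshold behind these counts, an adjusted p under 0.05, 21.1% of all tested genes were higher and 22.4% lower. No listed marker was at 0 counts in all samples. The part of these cell types in the Hox results was not tested.

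With an adjusted p under 0.05 in edgeR's quasi-likelihood test, 2 of the 35 tested Hox genes (5.71%) were higher after LiCl, where 21.1% of all 18188 tested genes were higher. Another 11 Hox genes (31.4%) were lower, where 22.4% of all tested genes were lower. The remaining 22 passed in neither direction. *Hoxd10* and *Hoxd11* rose. *Hoxa11*, *Hoxb4*, *Hoxb7*, *Hoxb13*, *Hoxc4*, *Hoxc6*, *Hoxc9*, *Hoxd1*, *Hoxd3*, *Hoxd4* and *Hoxd8* fell. The median log2 fold change was -0.16 over the 35 Hox genes and -0.01 over all genes tested.

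Most of these differences were small. With the additional fold change threshold that the study used, a log2 fold change above 1 or below -1, 0 Hox genes were higher, where 2.74% of all genes were, and only *Hoxb13* was lower, where 4.59% of all genes were. Without a test, 4 Hox genes had every LiCl sample above every control, against 26.4% of all genes tested, and these were *Hoxd9*, *Hoxd10*, *Hoxd11* and *Hoxd13*. Another 14 had every LiCl sample below every control, against 27.8% of all genes. The summed level of the 38 genes was 411, 428 and 406 FPKM in the controls and 396, 402 and 390 FPKM after LiCl, so the LiCl samples lay below the controls by a small margin.

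**Figure D2:**
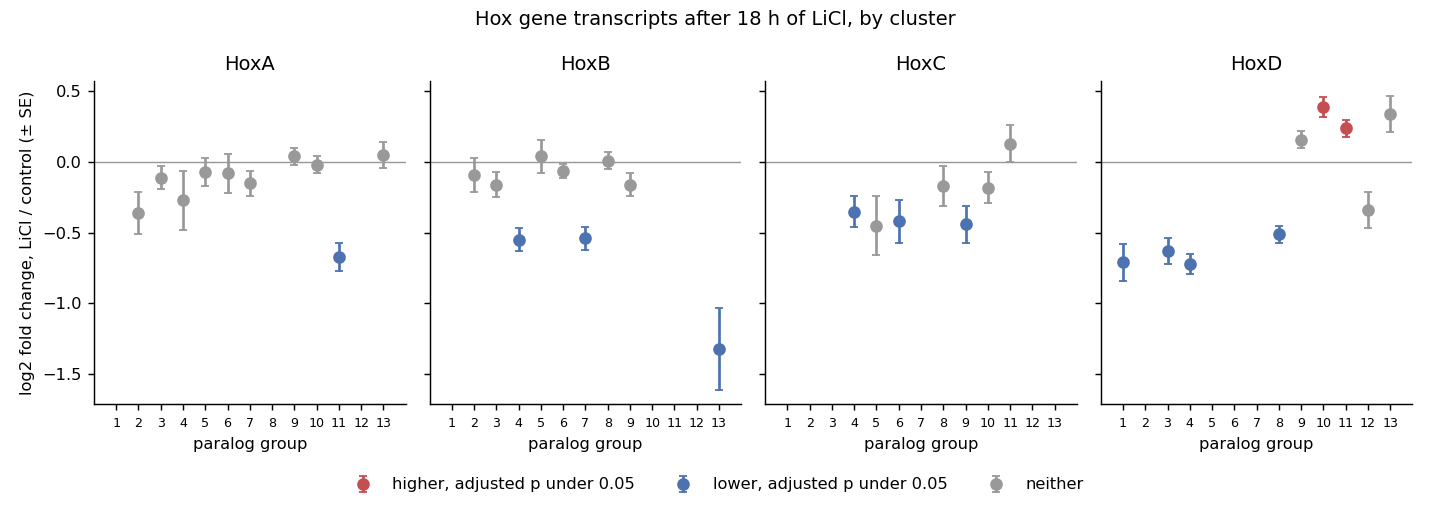
Log2 fold change of the 35 tested Hox genes, LiCl against control, with paralog groups on the x axis and 1 panel per cluster. Points are edgeR estimates and bars their SE. Red points are higher and blue points lower with an adjusted p under 0.05. The HoxD panel holds the only red points, at *Hoxd10* and *Hoxd11*, and blue points from *Hoxd1* to *Hoxd8*.

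HoxD held both directions. All 4 genes from *Hoxd1* to *Hoxd8* fell, with a median log2 change of -0.67. Among the 5 genes from *Hoxd9* to *Hoxd13*, 2 rose, 0 fell and 3 passed in neither direction, with a median of 0.24. One of these 3, *Hoxd12*, had a negative log2 fold change of -0.34. Over all tested genes, 21.1% were higher and 22.4% lower. This division of the cluster was chosen after the values were seen and was not tested as such. *Hoxd4*, a gene of the hindbrain and cervical vertebrae, had 22.0, 22.6 and 22.0 CPM in the controls and 13.9, 13.6 and 13.1 CPM after LiCl. The groups were far apart and each was tight. The level of *Hoxd4* fell by 39.1% (log2 fold change -0.72, SE 0.07, adjusted p = 4.4e-05).

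*Hoxd3*, which patterns the anterior cervical vertebrae, had 34.1, 33.5 and 29.5 CPM in the controls and 23.3, 19.6 and 19.6 CPM after LiCl, without overlap (log2 fold change -0.63, SE 0.09, adjusted p = 0.00046). The readthrough locus *Gm28230* held 189, 237 and 227 raw counts in the control samples and 201, 174 and 143 raw counts after LiCl, and its groups overlapped. *Hoxd1*, the most anterior gene of the cluster, had 14.9, 16.4 and 13 CPM and then 8.04, 10.5 and 8.58 CPM. All LiCl samples of *Hoxd1* lay below all controls (log2 fold change -0.71, SE 0.13, adjusted p = 0.0019), and the log2 fold change was -0.48 (adjusted p = 0.059) when LiCl replicates 1 and 3, the samples with raised muscle markers, were left out together. That fit holds 1 LiCl sample, which is assumed to vary like the controls, so its p-values have no replicate check in the treated group.

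*Hoxd8*, the last gene of this stretch before *Hoxd9*, had 57.4, 61.6 and 54.2 CPM in the controls and 40.7, 39.4 and 41.6 CPM after LiCl. The 3 LiCl samples were nearly equal and lay well below the lowest control (log2 fold change -0.51, SE 0.06, adjusted p = 0.00018). Unlike *Hoxd3* and *Hoxd4*, *Hoxd8* and *Hoxd1* share no exon base with another gene of that annotation. The summed level of the 4 genes was 43.7, 46.7 and 40.9 FPKM in the controls and 29.5, 29.3 and 29.0 FPKM after LiCl.

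On the other side, *Hoxd10*, a gene of lumbar motor neurons and the limb, had 37.0, 37.1 and 33.5 CPM in the controls and 50.6, 45.7 and 44.9 CPM after LiCl. Every LiCl sample lay above every control, and the level was 1.31-fold higher (log2 fold change 0.39, SE 0.07, adjusted p = 0.0014). *Hoxd11*, which acts with its group 11 paralogs in kidney and forearm formation, had 61.0, 55.3 and 61.9 CPM and then 68.7, 74.9 and 66.4 CPM. The groups of *Hoxd11* were separate by a smaller margin (log2 fold change 0.24, SE 0.06, adjusted p = 0.016), and without LiCl replicate 2 the adjusted p was 0.051. *Hoxd10* and *Hoxd11* share 5.7% and 10.8% of their exon bases with *Gm28309* on the same strand, a locus with 30 to 62 raw counts per sample.

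*Hoxd9*, the neighbour of *Hoxd8*, had 58.1, 60.0 and 55.3 CPM in the controls and 67.1, 60.4 and 66.0 CPM after LiCl. The lowest LiCl sample, replicate 2, barely exceeded the highest control, and the gene did not pass the threshold (log2 fold change 0.16, SE 0.06, adjusted p = 0.053). The ratio of *Hoxd9* to *Hoxd8* FPKM within a sample was 1.30, 1.25 and 1.31 in the controls and 2.12, 1.97 and 2.04 after LiCl. This ratio does not depend on the scaling of the library, and its groups were well separated in all 6 samples. The pair was chosen after the values were seen, and *Hoxd8* alone already separated the groups. The ratio is therefore no separate support for a rise of *Hoxd9*.

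*Hoxd12* and *Hoxd13*, at the posterior end of the cluster, depended on 1 library. *Hoxd13*, a determinant of digits and of the genital tubercle, had 68.2, 75.4 and 73.0 CPM in the controls and 76.2, 114 and 84.9 CPM after LiCl (log2 fold change 0.34, SE 0.13, adjusted p = 0.053). LiCl replicate 2 was far above the other samples, and without it the log2 fold change was 0.16 (adjusted p = 0.1), whereas without LiCl replicate 1 it was 0.46 (adjusted p = 0.01).

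*Hoxd12* had 40.6, 44.7 and 42.6 CPM in the controls and 29.1, 42.1 and 30.1 CPM after LiCl. Replicate 2 lay within the control range and the other LiCl samples far below it. The log2 fold change was -0.34 over all samples (SE 0.13, adjusted p = 0.055) and -0.52 without LiCl replicate 2 (adjusted p = 0.00056). In spite of this, the ratio of *Hoxd13* to *Hoxd12* FPKM was nearly constant within each group, with 1.72, 1.72 and 1.75 in the controls and 2.67, 2.76 and 2.88 after LiCl. The ratio of *Hoxd12* to *Hoxd11* FPKM went the other way, with 1.11, 1.34 and 1.14 in the controls and 0.704, 0.935 and 0.754 after LiCl.

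LiCl replicate 2 was also the highest LiCl sample for *Hoxa13*, *Hoxc11*, *Hoxd11* and *Evx2*, but not for all posterior genes. *Hoxd11* had 68.7, 74.9 and 66.4 CPM after LiCl, and *Hoxc11* had 12, 12.2 and 10.3 CPM. *Hoxa13* had 67.1, 64.6 and 61.0 CPM in the controls and 61.0, 77.2 and 61.8 CPM after LiCl (log2 fold change 0.05, SE 0.09, adjusted p = 0.66). *Evx2*, the homeobox gene next to *Hoxd13*, had 13.2, 13.1 and 14.9 CPM and then 11.3, 18.3 and 13.5 CPM (log2 fold change 0.06, SE 0.16, adjusted p = 0.78). Of the other posterior genes, *Hoxa9*, *Hoxa10*, *Hoxa11*, *Hoxb13*, *Hoxc10* and *Hoxd9* had their lowest LiCl value in replicate 2. For *Hoxa10* this was 119 CPM against 137 and 130 CPM in replicates 1 and 3. The same library had the lowest muscle marker sum of the treated samples, 37.2 CPM. The part of this in the *Hoxd12* and *Hoxd13* values was not tested.

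**Figure D3:**
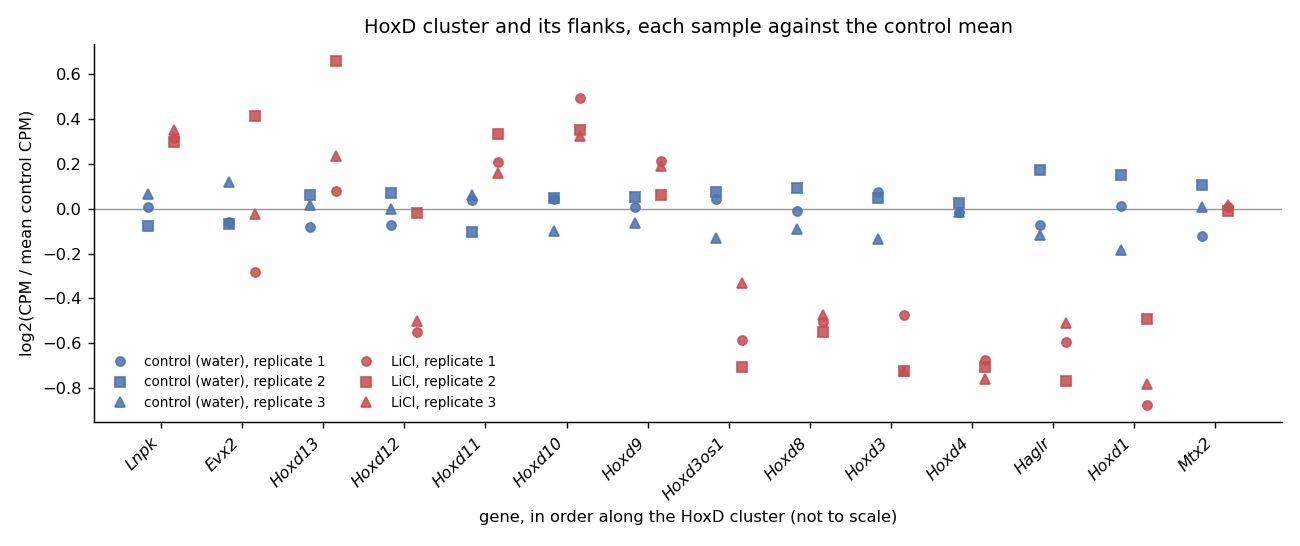
Log2 ratio of CPM in each sample to the mean control CPM for the genes of HoxD and its flanks. The order is roughly that of the cluster and not to scale. *Hoxd3os1* is drawn between *Hoxd9* and *Hoxd8*, although its exons overlap those of *Hoxd3* and *Hoxd4*. Blue symbols are controls and red symbols LiCl samples, with the shape giving the replicate number. The red symbols lie above 0 from *Hoxd11* to *Hoxd9* and below the blue ones from *Hoxd3os1* to *Hoxd1*, and LiCl replicate 2 stands apart at *Evx2*, *Hoxd13* and *Hoxd12*.

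The region around the HoxD genes was read from a list of 28 noncoding RNAs and neighbouring genes of the 4 clusters. Of the 21 tested, 4 were higher and 4 were lower, with a median log2 change of -0.10. Among all tested genes, 21.1% were higher and 22.4% lower. *Haglr* and *Hoxd3os1*, noncoding RNAs transcribed against the direction of the Hox genes, lie in the *Hoxd8* to *Hoxd1* stretch and had the lowest log2 fold changes of the list. *Haglr* had 16.5, 19.6 and 16 CPM in the controls and 11.5, 10.2 and 12.2 CPM after LiCl (log2 fold change -0.62, SE 0.11, adjusted p = 0.0014). *Hoxd3os1* had 6.08, 6.21 and 5.38 CPM and then 3.92, 3.61 and 4.68 CPM, again without overlap (log2 fold change -0.53, SE 0.14, adjusted p = 0.013).

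Because the strand setting of the counting is not given in the sources used here, reads of these RNAs cannot be separated with certainty from those of *Hoxd3* and *Hoxd4* where the exons overlap, which are 8.8% and 11.8% of the exon bases of these genes. Beyond the cluster, *Mtx2* on the *Hoxd1* side had a log2 fold change of 0.00 (SE 0.06, adjusted p = 0.97), and *Lnpk* on the *Evx2* side rose with a log2 fold change of 0.32 (SE 0.06, adjusted p = 0.0016). The largest log2 fold changes of the list were those of 2 weakly expressed neighbours of HoxB, *Skap1* (1.70, SE 0.27, adjusted p = 0.00099) and *Ttll6* (1.69, SE 0.40, adjusted p = 0.008), with LiCl means of 1.77 and 0.754 CPM.

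The promoter sequences of RefSeq for GRCm38.p6 covered 22 of the 38 genes with 24 start sites, among them all genes of HoxD. The counts were made on GRCm39, and the coordinates here are those of the older build. The 250 bases before each start were searched on both strands for 4 motifs. The motif of TCF/LEF factors, the DNA-binding partners of beta-catenin, was searched as CTTTGAA or CTTTGAT, which cannot overlap at the same position. It was found in 7.48% of 32851 promoters and in 2 of the 24 Hox promoters, those of *Hoxd12* and *Hoxd8*. The *Hoxd8* promoter held CTTTGAT at 2 places, from 153 to 147 and from 143 to 137 bases before the start, and the *Hoxd12* promoter held CTTTGAA from 34 to 28 bases before the start. The following sequences show the promoters of *Hoxd12* and *Hoxd8* with this motif in capitals. Beside them are those of *Hoxd9*, the neighbour of *Hoxd8*, and of *Hoxd4*, the HoxD gene with the smallest adjusted p. The motif was found in neither, and *Hoxd9* itself did not pass the threshold. All are written 5′ to 3′ on the strand of the gene.
Hoxd12 (chr2:74674763-74675012, plus strand): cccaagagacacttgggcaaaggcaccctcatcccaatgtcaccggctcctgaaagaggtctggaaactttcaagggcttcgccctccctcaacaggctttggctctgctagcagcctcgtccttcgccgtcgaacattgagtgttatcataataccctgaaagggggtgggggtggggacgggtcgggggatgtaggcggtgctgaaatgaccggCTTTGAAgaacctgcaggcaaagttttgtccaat
Hoxd9 (chr2:74697513-74697762, plus strand): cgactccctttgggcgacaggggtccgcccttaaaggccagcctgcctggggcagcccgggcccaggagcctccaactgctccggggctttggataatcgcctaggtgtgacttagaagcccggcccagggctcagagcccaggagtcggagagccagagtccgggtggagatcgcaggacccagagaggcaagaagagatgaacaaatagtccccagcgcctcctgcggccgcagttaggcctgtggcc
Hoxd8 (chr2:74704365-74704614, plus strand): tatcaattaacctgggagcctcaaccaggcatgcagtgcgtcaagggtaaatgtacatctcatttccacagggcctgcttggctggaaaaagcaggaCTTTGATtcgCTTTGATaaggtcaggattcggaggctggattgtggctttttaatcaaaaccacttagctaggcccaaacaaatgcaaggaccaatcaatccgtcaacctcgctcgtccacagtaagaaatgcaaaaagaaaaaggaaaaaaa
Hoxd4 (chr2:74721728-74721977, plus strand): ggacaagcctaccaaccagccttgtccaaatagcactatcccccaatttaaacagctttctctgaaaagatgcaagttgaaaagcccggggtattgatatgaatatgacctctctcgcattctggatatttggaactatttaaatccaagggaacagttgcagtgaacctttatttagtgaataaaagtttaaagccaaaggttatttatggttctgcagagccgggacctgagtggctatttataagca

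These stretches differ in composition. The *Hoxd8* and *Hoxd4* promoters hold 44.4% and 40.4% G and C with 6 and 3 CpG dinucleotides, the *Hoxd9* and *Hoxd10* promoters 65.2% and 65.6% with 13 and 20, and the median over all promoters was 52.4% with 6. The difference does not follow the direction of change throughout, since the *Hoxd1* promoter holds 71.6% G and C with 24 CpG dinucleotides. The motif of CDX factors, which activate posterior Hox genes in the early embryo, was searched as TTTATG and found in 10.8% of all promoters and in 5 of the 24, those of *Hoxd11*, *Hoxd3*, *Hoxd4*, *Hoxa7* and *Hoxb8*. The HOX-PBX motif, searched as TGATTGAT or TGATTTAT, was found in 1.49% of all promoters and in those of *Hoxd11* and *Hoxa2*. The MEIS motif, TGACAG, was found in 15.9% of all promoters and in those of *Hoxa2* and *Hoxa3*. The letters of these motifs can overlap, as TGATTTAT and TTTATG share bases. A match is only a stretch of letters and was not examined for binding.

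Outside HoxD, 7 genes passed the threshold and all of them were lower. Over all tested genes, 22.4% were lower and 21.1% higher. In HoxA, 1 of 10 genes passed, *Hoxa11*, and the median log2 change over the cluster was -0.10. *Hoxa11*, which acts in kidney, uterus and limb formation, had 36.5, 43.6 and 38.6 CPM in the controls and 25.6, 21.7 and 27.4 CPM after LiCl. The groups were wide apart, and the level fell by 37.0% (log2 fold change -0.67, SE 0.10, adjusted p = 0.00054). The antisense RNA *Hoxa11os* overlaps 35.0% of the exon bases of *Hoxa11* on the opposite strand and had 27.9, 30.6 and 26.8 CPM in the controls and 25.4, 28.4 and 27.5 CPM after LiCl (log2 fold change -0.07, SE 0.07, adjusted p = 0.46). Without the strand setting of the counting, reads in the shared stretch cannot be assigned to *Hoxa11* or *Hoxa11os* with certainty.

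The neighbours of *Hoxa11* had other values. *Hoxa10* had a log2 fold change of -0.02 (SE 0.06, adjusted p = 0.76) and *Hoxa9* one of 0.04 (SE 0.06, adjusted p = 0.65). The ratio of *Hoxa10* to *Hoxa11* FPKM was 2.49, 2.11 and 2.37 in the controls and 3.74, 3.82 and 3.32 after LiCl. The 3 group 11 paralogs thus differed in direction, with *Hoxa11* lower, *Hoxd11* higher, and *Hoxc11* at a log2 fold change of 0.13 that did not pass (SE 0.13, adjusted p = 0.44). In FPKM, *Hoxa11* was above *Hoxd11* in the controls, at 17.1 ± 1.68 and 14 ± 0.789, and below it after LiCl, at 10.9 ± 1.29 and 16.7 ± 0.998 (SD, n = 3 each). The order in the controls depends on the gene lengths behind the FPKM, 2287 bases for *Hoxa11* and 4212 for *Hoxd11*. In CPM, which leave out length, *Hoxa11* was below *Hoxd11* in the controls (39.5 and 59.4) and after LiCl (24.9 and 70).

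**Figure D4:**
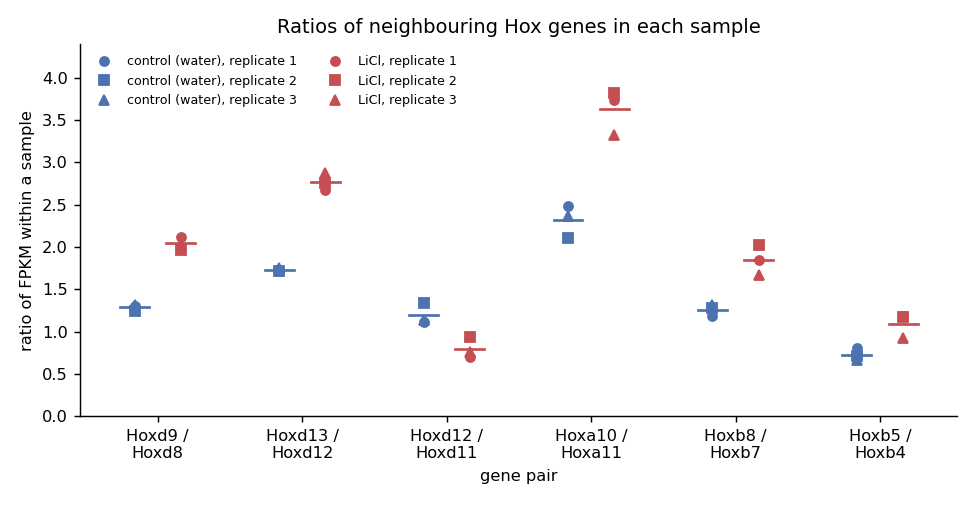
Ratio of the FPKM of neighbouring Hox genes within each sample. Blue symbols are controls and red symbols LiCl samples, short lines are the means of 3, and the symbol shape gives the replicate number. The pairs were chosen after the values were seen. The LiCl ratios lie above the control ratios in 5 of the 6 pairs, such as 1.97 to 2.12 against 1.25 to 1.31 for *Hoxd9* over *Hoxd8*, and below them for *Hoxd12* over *Hoxd11*.

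In HoxB, 3 of 9 tested genes fell and 0 rose, where 22.4% of all tested genes were lower and 21.1% higher. The median log2 fold change of the cluster was -0.16. *Hoxb13*, a posterior gene known from the hindgut and the prostate, held 76, 54 and 62 raw counts in the control samples and 23, 17 and 34 after LiCl, or 2.64, 1.74 and 2.02 CPM against 0.739, 0.608 and 1.20 CPM. It was 2.50-fold lower without overlap of the groups (log2 fold change -1.32, SE 0.29, adjusted p = 0.0056). At this depth it was the weakest Hox gene that passed, and its level was at most 1.18 FPKM.

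*Hoxb4*, a gene of the neck vertebrae and of blood progenitors, had 21.8, 25.0 and 21.8 CPM in the controls and 16.2, 14.9 and 15.6 CPM after LiCl (log2 fold change -0.55, SE 0.08, adjusted p = 0.00052). *Hoxb7* had 27.5, 28.5 and 24.4 CPM and then 18.7, 17.3 and 19.2 CPM (log2 fold change -0.54, SE 0.08, adjusted p = 0.00057). Both had tight LiCl groups below every control. *Hoxb7* is known from the epithelium that the UE markers represent. Of the 14 UE markers, 11 were lower and 1 was higher in the same LiCl samples, against 22.4% and 21.1% of all tested genes. The part of the epithelium in the *Hoxb7* values was not tested.

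The genes between and beside them had other values. *Hoxb5* had a log2 fold change of 0.04 (SE 0.12, adjusted p = 0.80), *Hoxb6* of -0.06 (SE 0.05, adjusted p = 0.37) and *Hoxb8* of 0.01 (SE 0.06, adjusted p = 0.87). The ratio of *Hoxb8* to *Hoxb7* FPKM was 1.18, 1.28 and 1.31 in the controls and 1.85, 2.02 and 1.67 after LiCl, and that of *Hoxb5* to *Hoxb4* was 0.808, 0.708 and 0.661 and then 1.19, 1.17 and 0.927. *Hoxb2*, *Hoxb3* and *Hoxb9* had log2 fold changes of -0.09, -0.16 and -0.16 and did not pass. *Hoxb3* (-0.26) passed without LiCl replicate 1 (adjusted p = 0.043) and *Hoxb9* (-0.24) without control replicate 3 (adjusted p = 0.03). *Hoxb3* shares 52.9% of its exon bases with *Hoxb3os* on the opposite strand.

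In HoxC, 3 of 7 tested genes fell and 0 rose, where 22.4% of all tested genes were lower and 21.1% higher. The median log2 fold change of the cluster was -0.35. The 3 lower genes were weak and near the threshold. *Hoxc4* had 13.6, 13.6 and 15.4 CPM in the controls and 12.7, 10.2 and 10.5 CPM after LiCl (log2 fold change -0.35, SE 0.11, adjusted p = 0.026). *Hoxc9*, which sets thoracic identity, had 7.37, 7.37 and 8.77 CPM and then 5.08, 6.15 and 6.17 CPM (log2 fold change -0.44, SE 0.13, adjusted p = 0.022). *Hoxc6*, also a thoracic gene, had 9.14, 6.24 and 8.64 CPM and then 5.85, 5.94 and 6.17 CPM, with control replicate 2 close to the LiCl samples (log2 fold change -0.42, SE 0.15, adjusted p = 0.048).

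None of the 3 kept its call throughout. *Hoxc4* missed the threshold without control replicate 3 (adjusted p = 0.1), without LiCl replicate 2 (adjusted p = 0.081) and without LiCl replicate 3 (adjusted p = 0.095). *Hoxc9* missed it without control replicate 3 (adjusted p = 0.093) and without LiCl replicate 1 (adjusted p = 0.07). *Hoxc6* was past the threshold in 4 of 16 alternative analyses, with adjusted p from 0.0054 to 0.23. *Hoxc5* had a log2 fold change of -0.45 that did not pass (SE 0.21, adjusted p = 0.11) but did without control replicate 2 (-0.59, adjusted p = 0.046) or without LiCl replicate 1 (-0.64, adjusted p = 0.041). *Hoxc8* and *Hoxc10* had log2 fold changes of -0.17 and -0.18 and did not pass.

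**Figure D5:**
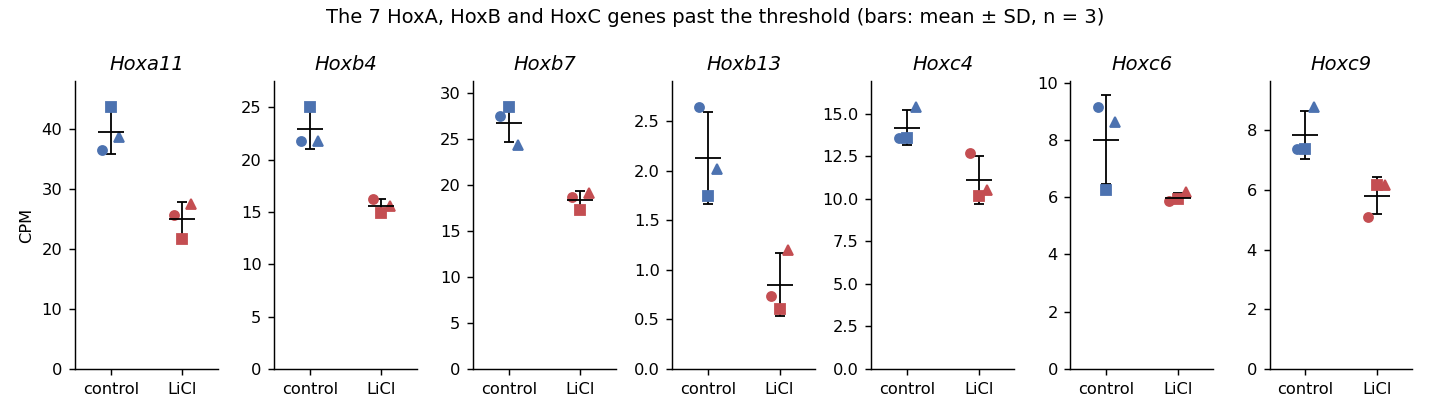
CPM of the 7 genes of HoxA, HoxB and HoxC with an adjusted p under 0.05. Blue symbols are controls, red symbols LiCl samples, the shape gives the replicate number, and black bars are the mean ± SD of 3 samples. Each axis starts at 0. The groups of *Hoxa11*, *Hoxb4*, *Hoxb7* and *Hoxb13* are well apart, while control replicate 2 of *Hoxc6*, at 6.24 CPM, lies close to the LiCl samples.

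By paralog group, both low and high numbers held lower calls, and both higher calls were HoxD genes. Of 21 tested genes of groups 1 to 8, 0 were higher and 8 lower, with a median log2 change of -0.27. Of 14 tested genes of groups 9 to 13, 2 were higher and 3 lower, with a median of 0.01, and the 2 are 14.3% against 21.1% of all genes. The difference between the ranges was not tested. Without HoxD, 4 of the 17 tested genes of groups 1 to 8 were lower, 23.5% against 22.4% of all genes, and their median was -0.16. In group 4, 3 of 4 genes fell (*Hoxb4*, *Hoxc4* and *Hoxd4*), and *Hoxa4* had a log2 fold change of -0.27 (SE 0.21, adjusted p = 0.32). Spearman's rho of paralog number with log2 fold change was 0.78 over the 9 genes of HoxD, 0.57 over 7 of HoxC, 0.44 over 10 of HoxA and -0.23 over 9 of HoxB. These values describe genes measured in the same 6 libraries, and the groups of genes were formed with the values known.

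The other HoxA genes changed little or were weak. *Hoxa2*, a gene of the hindbrain and the second branchial arch, had 4.69, 6.05 and 5.22 CPM in the controls and 4.50, 3.50 and 4.39 CPM after LiCl, without overlap but also without passing (log2 fold change -0.36, SE 0.15, adjusted p = 0.084). *Hoxa3*, *Hoxa5*, *Hoxa6* and *Hoxa7* had log2 fold changes of -0.11, -0.07, -0.08 and -0.15, and none passed. Between 16% and 25.4% of the exon bases of *Hoxa3*, *Hoxa4* and *Hoxa7* are shared with noncoding RNAs on the opposite strand. *Evx1*, the homeobox gene beyond *Hoxa13*, rose from 15.3, 15.2 and 15.4 CPM to 20.2, 25.7 and 21.8 CPM (log2 fold change 0.56, SE 0.09, adjusted p = 0.0012).

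HOX proteins bind DNA together with cofactors of the PBX, MEIS and PKNOX families. Of 8 cofactors examined, all were tested, and the median log2 fold change was -0.10. The list held 1 higher and 2 lower genes, where 21.1% and 22.4% of all tested genes were higher and lower. *Meis2* fell from 347 ± 6.62 to 209 ± 8.36 CPM (log2 fold change -0.73, SE 0.05, adjusted p = 4.5e-06) and *Meis1* from 323 ± 3.24 to 228 ± 4.56 CPM (log2 fold change -0.50, SE 0.04, adjusted p = 2.1e-05). *Pbx3* was higher, with 87.4 ± 4.29 CPM in the controls and 114 ± 4.82 CPM after LiCl (log2 fold change 0.39, SE 0.05, adjusted p = 0.00049). The log2 fold changes of *Meis3*, *Pbx2*, *Pbx4*, *Pknox1* and *Pknox2* were -0.13, 0.08, 0.51, -0.06 and -0.16, and none of these passed.

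Genes that act upstream of Hox transcription in the early embryo were largely at or near the detection limit. Of 11 listed inducers, 5 were tested, and *Cdx1*, *Cdx2* and *Cdx4* had control means of at most 0.350 CPM. *Wnt3a* had 0 counts in every sample. *Gdf11*, a ligand that sets the position of posterior Hox expression, was higher (log2 fold change 0.43, SE 0.05, adjusted p = 0.00017), and *Egr2*, a hindbrain regulator that is also an immediate early gene, was lower at a mean of 1.46 CPM in the controls (log2 fold change -0.78, SE 0.24, adjusted p = 0.026). The median over the 5 was 0.40.

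Retinoic acid (RA) induces anterior Hox genes through RA receptors. Of 14 tested genes of RA synthesis, breakdown, transport and response, 4 were higher and 5 lower, and the median log2 fold change was -0.26. The shares over all tested genes were 21.1% higher and 22.4% lower. *Rdh10*, the retinol dehydrogenase of RA synthesis, and *Dhrs3*, an RA-induced reductase, had the lowest log2 fold changes at -1.11 (SE 0.05, adjusted p = 1.1e-06) and -0.92 (SE 0.10, adjusted p = 9.8e-05). *Aldh1a3* and *Aldh1a1*, 2 RA-synthesizing enzymes, had the largest at 0.86 (SE 0.10, adjusted p = 0.00021) and 0.73 (SE 0.10, adjusted p = 0.00054).

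Polycomb proteins keep Hox clusters silent, and Trithorax proteins keep them active. Of 20 tested Polycomb genes, 7 were higher and 4 lower, with a median log2 change of 0.12. *Mtf2* (0.59, SE 0.05, adjusted p = 2.1e-05) and *Cbx2* (0.44, SE 0.05, adjusted p = 9.4e-05) had the largest values, and *Rbbp7* (-0.54, SE 0.04, adjusted p = 2.1e-05) and *Ring1* (-0.39, SE 0.07, adjusted p = 0.0024) the lowest. A second list held genes of the Trithorax group, histone demethylases and also *Ctcf*. Of its 12 tested genes, 7 were higher and 1 lower, with a median of 0.21. *Kmt2b* had the largest log2 fold change at 0.38 (SE 0.06, adjusted p = 0.00069), followed by *Rbbp5* at 0.34 (SE 0.05, adjusted p = 0.00063), and *Kdm6a*, which removes a repressive histone mark, was lower at -0.25 (SE 0.08, adjusted p = 0.027). For comparison, 21.1% of all tested genes were higher and 22.4% lower.

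Of 7 partners and targets of the group 11 paralogs examined in the kidney program, 0 were higher and 1 lower, with a median log2 change of -0.06. Over all tested genes, 21.1% were higher and 22.4% lower. The lower gene of the list was *Eya1*, which encodes a transcriptional coactivator (-0.36, SE 0.11, adjusted p = 0.027). *Pax2* had a log2 fold change of -0.14 that did not pass (SE 0.06, adjusted p = 0.082), and *Gdnf* was weak, with 1.15 ± 0.481 CPM in the controls and 1.48 ± 0.368 CPM after LiCl (SD, n = 3).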

How the data were processed

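RNA-Seq was performed on 6 E12.5 ureter explant cultures, 3 with 15 mM LiCl and 3 with water, from stranded poly-A libraries with paired-end reads. Groups came from the sample labels. The authors deposited raw counts per Ensembl gene without normalization, made with featureCounts 2.0 on GRCm39 after filtering of reads. For the aligner, the study's methods name HISAT2 and the submitters' processing notes STAR 2.7. The annotation release and the strand setting are not given in the sources used here. A second set of values that the authors deposited is FPKM, in 1 file per sample. These equal the counts divided by DESeq2 size factors and a whole-number gene length in 100% of 85450 values with more than 50 counts, within 0.05 of a whole base. Symbols came from GENCODE vM21 (52073 of 56748 identifiers).

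From the counts, edgeR 4.0.16 (under R 4.3.3) kept 18188 genes with filterByExpr, scaled the libraries by TMM and compared LiCl with control by its quasi-likelihood test. P-values were adjusted after Benjamini and Hochberg over all genes kept. Every adjusted p in the text comes from this test unless another is named. The SE is the log2 fold change divided by the square root of the F value. The fit replaced the DESeq2 test that the study names, which was run as an alternative. For 1 gene and 3 samples per group, exact permutation cannot reach a p under 0.1. In the 6 within-group pairs of samples, the chi-square of the counts per degree of freedom was 5.93 to 14.5, so no sample repeats another. On simulated counts, 50 genes per fold size were changed among 18335 tested. There, edgeR recovered 86% of log2 fold changes of 0.58 and 100% of those of 1, 1.5 and 2, with 10 false calls. It made 0 calls on unchanged counts. Every simulated gene had the same dispersion, and only genes above a minimum level were changed. These rates therefore need not hold for weak Hox genes or for those that vary more between samples.

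The members, gene lists and alternatives were chosen with earlier results of these data known. All 38 members could be named. Values in every sample were set for members past an adjusted p of 0.05 whose log2 fold change exceeded 0.58 in either direction, for the member with the highest mean FPKM in each cluster and for members that missed the count minimum in spite of 10 counts in a sample. The values per sample of the others, the ratios and the divisions of HoxD were chosen after the values were seen. From the other lists, the 2 largest and 2 smallest log2 fold changes among genes with an adjusted p under 0.05 were named, and every cofactor examined. Results of 2 genes of these lists are not reported here. *Tbx18*, *Cdh1*, *Evx1*, *Evx2*, *Lnpk*, *Mtx2*, *Hoxa11os*, *Gm28230*, *Gm28309*, the *Cdx* genes, *Wnt3a*, *Pax2* and *Gdnf* were picked with their values known. The alternatives used DESeq2 1.42.0, RLE size factors, scaling by library size, a minimum of 10 counts in 3 samples, no filter, a replicate block, each sample left out, LiCl replicates 1 and 3 left out together, glmTreat, and limma 3.58.1 on log2(FPKM + 1) or log2(FPKM + 0.1) with a mean of at least 0.5 FPKM or without filter. Promoters were those of RefSeq for GRCm38.p6, of which the 250 bases before the start were used.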

Additional observations from a re-analysis of the deposited data

How the results depend on the processing

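No Hox gene changed direction while past the threshold under any of the 16 alternatives to the edgeR analysis. *Hoxa11*, *Hoxb4*, *Hoxb7*, *Hoxb13*, *Hoxd3*, *Hoxd4*, *Hoxd8* and *Hoxd10* were past the threshold in all 16, *Hoxd1* and *Hoxd11* in 15, *Hoxc4* and *Hoxc9* in 12, and *Hoxc6* in 4. Of the 560 gene values recomputed, 515 stayed on their side of the threshold, 23 came past it and 22 lost it. The count of 2 higher Hox genes was 4 with RLE size factors, 4 with no filter and 4 when LiCl replicates 1 and 3 were left out together, a fit with 1 LiCl sample that is assumed to vary like the controls, and 2 to 3 when each sample was left out in turn. The count of 11 lower genes lay between 8 and 12, and between 9 and 12 when each sample was left out. The 1 gene below a log2 fold change of -1, *Hoxb13*, became 0 genes with limma on log2(FPKM + 1), at a mean of at least 0.5 FPKM or with no filter, and 0 with glmTreat, and remained 1 when each sample was left out. The pseudocount of 1 is above the mean FPKM of this gene in both groups, 0.957 and 0.387, and its log2 fold change was -0.50 on that scale. Among the others, *Hoxd9* came past the threshold in 6 of 16 alternatives, *Hoxd13* in 6 and *Hoxd12* in 5, and the cause was not tested. Same-numbered control and LiCl samples had correlations of 0.03, -0.09 and 0.10 of their deviations. Those of differently numbered samples were -0.13 to 0.09, so no pairing by number was seen. With 3 samples per group, this check cannot show that the samples were not paired. The fit with the replicate block had 3 higher and 12 lower Hox genes, of which 2 and 10 were called without it. Other scalings moved the median log2 fold change of all genes by at most 0.05. Differences in weak genes such as *Hoxb1*, *Hoxc12* and *Hoxc13* were not detectable at this depth.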
